A study of Caenorhabditis elegans with 4 samples.

Results

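The Hedgehog-related and Patched-related genes of C. elegans were examined in RNA-seq libraries of old worms kept with or without the herbal formula Gengnianchun (GNC). The members were all genes of the deposited table whose name begins with grl, grd, wrt, hog, ptr or ptc followed by a number, which gave 84 of 46766 genes. They comprised 58 ligand-like genes (31 grl, 16 grd, 10 wrt and hog-1) and 26 receptor-like genes (23 ptr and 3 ptc). All worms were wild-type N2, the standard laboratory strain, in synchronized populations that were 22 days old and fed E. coli OP50. One group received GNC, a mixture of water extracts of crude herbs, at 3.94 mg/mL and the other received water (H2O) as the vehicle control, with 2 libraries per group. The protocols name S-complete liquid medium for both groups, while the design text names NGM. Each library holds the RNA of whole worms, so fewer cells of a type and less RNA per cell cannot be told apart. No source states that the libraries of a group came from separate cultures, and the p-values measure only the spread between these libraries.

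In flies and vertebrates, the secreted Hedgehog protein binds Patched, a membrane protein with a sterol-sensing domain, and thereby frees Smoothened to act on Gli transcription factors. C. elegans lacks Smoothened and a canonical Hedgehog ligand, but it carries families of secreted Hedgehog-related proteins, named warthog (wrt), groundhog (grd) and groundhog-like (grl). It also carries Patched genes (ptc) and a large Patched-related family (ptr). In the worm, members of these families are known above all for work in the epidermis, in moulting and in the cuticle, while ptc-1 is needed for cytokinesis in the germ line.

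The libraries held from 18639631 to 21753657 counts. Levels of different genes were compared in deposited FPKM, which scale the count to the gene length and the library total. GNC and control worms were compared in counts per unit of library size after TMM scaling (CPM), with edgeR's quasi-likelihood F-test over 16341 genes that passed a filter on low counts. A gene passed the test at a Benjamini-Hochberg false discovery rate (FDR) under 0.05, and it was called at 2-fold when its change was also at least 2-fold. Over all genes tested the log2 fold change had a median of 0.02, and 3238 genes rose while 3356 fell. This split depended on the scaling, since 4349 rose and 2121 fell with library totals, and 2298 rose and 5162 fell with the medians of the libraries made equal. Replicates differed by more than sampling noise in both groups, so all 4 libraries were kept as separate samples.

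The worms expressed the receptor-like genes far more than the ligand-like genes. Over all 4 libraries, the median member had 5.86 FPKM among the 26 receptor-like genes and 0.321 FPKM among the 58 ligand-like genes. The summed level of the receptor-like genes was 343 and 342 FPKM in the control libraries and 420 and 441 FPKM in the GNC libraries. For the ligand-like genes the sums were 67.3 and 70.4 FPKM in control and 74.6 and 78.9 FPKM with GNC. Receptor-like genes therefore carried 83.6% and 82.9% of the summed FPKM of the members in control worms, and 84.9% and 84.8% with GNC. A mean of at least 1 FPKM was reached by 19 of the 26 receptor-like genes and by 13 of the 58 ligand-like genes.

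**Figure D1:**
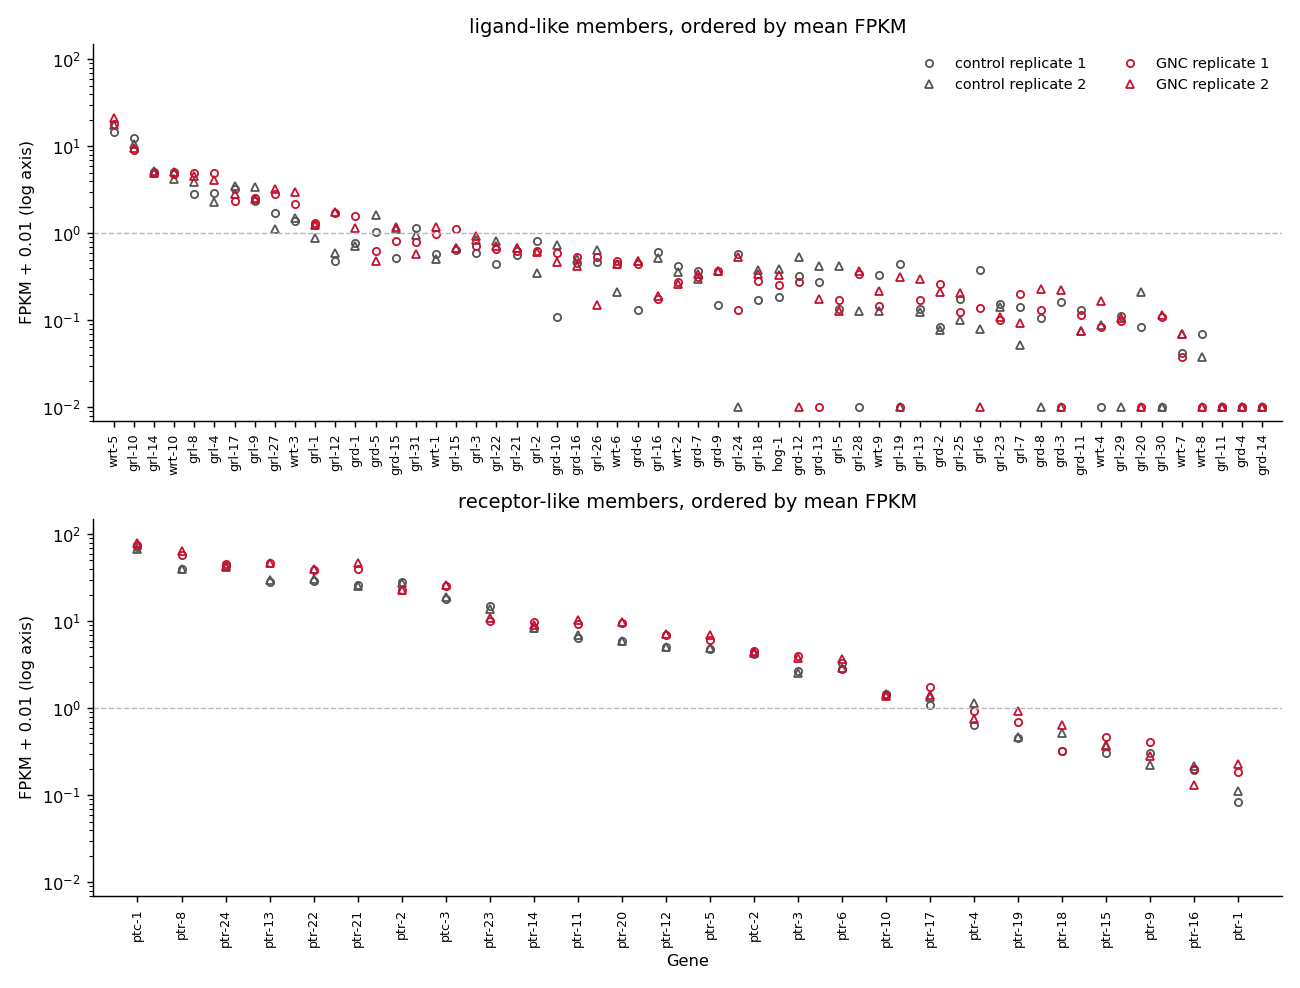
FPKM of each member in each of the 4 libraries, with 0.01 added so that zeros can be drawn on the log axis; grey symbols are control and red symbols GNC libraries, and the dashed line marks 1 FPKM. Of the 58 ligand-like genes 13 had a mean of at least 1 FPKM, against 19 of the 26 receptor-like genes, and ptc-1 had the highest level in every library.

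The most abundant member was ptc-1 (WBGene00004208, chromosome II, 7893229 to 7900484, build WBcel235), one of the worm's Patched orthologs, which had 71.1 and 67.3 FPKM in control and 75.4 and 80.3 FPKM in GNC worms. By the mean over all 4 libraries it was followed by ptr-8, with 39.4 and 40.2 FPKM in control and 57.4 and 64.6 FPKM with GNC, and by ptr-24, with 43.1 and 41.8 FPKM in control and 45 and 42.8 FPKM with GNC. In both control libraries ptr-24 lay above ptr-8, whereas with GNC ptr-8 lay above ptr-24 in both. The next levels, as means over the 4 libraries, were 37.6 FPKM for ptr-13, 34.4 for ptr-22, 34.3 for ptr-21, 25.6 for ptr-2 and 22.3 for ptc-3. Among the 18 pairs of neighbours in the order of receptor-like genes with at least 1 FPKM, the ranges overlapped in 1 pair in control worms and in 4 pairs with GNC, and in 3 pairs of each group the order was the opposite of that of the means. At the low end, ptr-1 and ptr-16 had mean levels of 0.143 and 0.178 FPKM.

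Among the ligand-like genes, wrt-5, which is needed for hypodermal development, had the highest level, with 14.5 and 17.8 FPKM in control and 18.1 and 20.9 FPKM in GNC worms. The next was grl-10, with 12.5 and 10.7 FPKM in control and 9.09 and 9.47 FPKM with GNC. Among the 12 pairs of neighbours with at least 1 FPKM in this class, 4 overlapped in control worms and 5 with GNC, and 2 of each group were in the opposite order. The genes wrt-5 and grl-10 carried from 36.5% to 40.4% of the summed FPKM of all 58 ligand-like genes in each library. Next by mean level came grl-14 at a mean of 4.999 FPKM and wrt-10 at 4.75 FPKM, whose ranges overlapped in both groups. Of the 16 groundhog genes, only grd-1 reached a mean of 1 FPKM, at 1.05 FPKM, followed by grd-5 at 0.933 FPKM and grd-15 at 0.898 FPKM.

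The least expressed members were ligand-like. Of the 58 ligand-like genes, 30 did not pass the filter on low counts, and none of these had more than 16 counts in any library. Together they had 198 counts in the control libraries and 206 in the GNC libraries. Of these, grl-11, grd-4 and grd-14 had 0 counts in all 4 libraries, which allows a level of up to 0.133 to 0.165 CPM per library for counting error alone. The Hog-domain gene hog-1 was at 3 and 7 counts in control worms and at 5 and 6 with GNC. The seam cell reporter gene grd-10 varied as much between the control libraries, at 1 and 8 counts, as between the groups, with 7 and 5 counts under GNC. The gene grl-21, linked with ptr-24 to fat storage in worms, was at 7 and 9 counts in control worms and at 9 in both GNC libraries. At these depths no difference between the groups was detectable for hog-1, grd-10 or grl-21.

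Gene position was not part of how the members were chosen, and is given as a description. Of the ligand-like genes, 28 of 58 (48.3%) lay on chromosome V, and of the receptor-like genes 16 of 26 lay on chromosomes I (7) and II (9). Several ligand-like genes were neighbours within 10 kb of each other. They were grl-28 to grl-31 on chromosome V, grl-9 and grl-8 on chromosome V, grd-13, grd-3 and grd-10 on chromosome IV, grd-14 and grd-4 on chromosome X, wrt-7 and wrt-8 on chromosome V, and wrt-1 and wrt-10 on chromosome II, which are 52 bases apart. In the wrt-1 and wrt-10 pair the groups separated for wrt-1 and overlapped for wrt-10. No receptor-like gene had another member within 10 kb. In the annotation the exons of 31 members overlap those of another gene, mostly on the other strand. Since no source says whether the counts were strand-specific, reads of such partners cannot be told apart from those of the member.

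Many receptor-like genes were higher in GNC-treated worms, by less than 2-fold. All 26 passed the filter on low counts, and 11 rose and 2 fell at an FDR under 0.05. These are shares of 42.3% and 7.69%, while 19.8% of all 16341 genes tested rose and 20.5% fell at that FDR. None was called at 2-fold by edgeR, where 4.97% of all genes tested were called higher and 2.23% lower, and none was called by DESeq2 or limma on FPKM either. In either direction, 13 of the 26 passed at an FDR under 0.05 in edgeR, beside 40.4% of all genes tested. An unadjusted p under 0.05 was also found for 13 of the 26, and the share of all genes at that threshold was not counted. With the medians of the libraries made equal, 6 rose and 3 fell, beside 2298 rises and 5162 falls over all genes tested. Among the 17 receptor-like genes with a mean count of at least 100, 10 rose and 2 fell (58.8% and 11.8%), against 22.5% and 26.8% of the 11158 genes tested at that depth. The median log2 fold change of the receptor-like genes was 0.28, within a range from -0.57 to 1.03. Without overlap, the GNC libraries lay above the control libraries in 12 receptor-like genes and below in 5, while this was so in 36.5% and 34.5% of all genes tested. One of the 12 is ptr-1, at the upper end of the range above, which passed the filter on low counts through its GNC libraries only. The summed CPM of all 26 was 1273 and 1287 in control and 1435 and 1515 in GNC libraries.

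Among the receptor-like genes that rose, ptr-21, ptr-20, ptr-13 and ptr-8 had the largest changes apart from the lowly expressed ptr-19. The level of ptr-21 (WBGene00004235, chromosome I, 550708 to 556638) was 89.3 and 87.9 CPM in control and 126 and 148 CPM with GNC, a log2 fold change of 0.63 (SE 0.08, adjusted p = 0.000248). That of ptr-20 (WBGene00004234, chromosome II, 15158178 to 15163611) was 16.6 and 17.1 CPM in control and 25.04 and 25.98 CPM with GNC, a log2 fold change of 0.60 (SE 0.09, adjusted p = 0.000818). In both genes the GNC libraries lay clear of the control libraries, by more than the replicates differed, in the same libraries that the test used. For ptr-13 (WBGene00004227, chromosome II, 11157291 to 11162331) the levels were 73.2 and 78.9 CPM in control and 116 and 114 CPM with GNC, with a log2 fold change of 0.60 (SE 0.06, adjusted p = 0.000102). For ptr-8 (WBGene00004222, chromosome II, 10889279 to 10893277) they were 113 and 118 CPM in control and 155 and 175 CPM with GNC, with a log2 fold change of 0.51 (SE 0.07, adjusted p = 0.000388). All of these p-values come from the edgeR test, adjusted over all genes tested. In the annotation ptr-8 shares 55 exonic bases with sra-10 on the opposite strand, a gene with only 7 to 14 counts per library.

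The Patched gene ptc-3 (WBGene00004210, chromosome II, 2845378 to 2852593), which is essential in worms, rose from 84.7 and 93.0 CPM to 114 and 118 CPM. Its log2 fold change was 0.38 (SE 0.06, edgeR adjusted p = 0.00125). The other Patched ortholog, ptc-1, was at 421 and 408 CPM in control and at 421 and 449 CPM with GNC, and its groups overlapped. Its log2 fold change was 0.07, with a 95% interval from -0.07 to 0.21 (edgeR adjusted p = 0.427), and it passed the test with expression-dependent offsets only (0.20, adjusted p = 0.0246). The pseudogene ptc-2 had 8.53 and 9.08 CPM in control and 8.74 and 8.50 CPM with GNC. Whether ptc-3 and ptc-1 differed in their change was not tested.

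The remaining rises among Patched-related genes were smaller or rested on fewer counts. The log2 fold change was 0.46 for ptr-3 (edgeR adjusted p = 0.0139), 0.46 for ptr-11 (adjusted p = 0.00568), 0.36 for ptr-12 (adjusted p = 0.00885), 0.32 for ptr-5 (adjusted p = 0.029) and 0.29 for ptr-22 (adjusted p = 0.00412). In ptr-19 it was 0.73 (SE 0.26, adjusted p = 0.0461), from 30 and 34 counts in control and 55 and 68 counts with GNC. The GNC libraries lay above the control libraries without overlap in each of these 6 genes, as in 36.5% of all genes tested. The 6 were picked by the test on these same libraries, so this separation is not further support. The rises of ptr-22 and ptr-12 were lost with the medians of the libraries made equal (adjusted p = 0.0615 and 0.0571), and that of ptr-11 without a filter (adjusted p = 0.0545). The calls of ptr-19, ptr-5 and ptr-3 were lost when some single libraries were left out, which leaves 1 library in a group and takes the spread from the other group alone. The log2 fold change of ptr-19 was then 0.68 without control replicate 1 (adjusted p = 0.121), 0.78 without control replicate 2 (0.0879) and 0.51 without GNC replicate 2 (0.339). That of ptr-5 was 0.29 without control replicate 1 (adjusted p = 0.0718) and 0.23 without GNC replicate 2 (0.213), and that of ptr-3 was 0.43 without GNC replicate 1 (0.0802). With all 4 libraries these 3 calls were also lost in DESeq2, where the adjusted p was 0.2 for ptr-19, 0.121 for ptr-5 and 0.0879 for ptr-3, without a filter, with the medians of the libraries made equal and with expression-dependent offsets. The call of ptr-19 was lost by a small margin with the median of all genes set to 0 (adjusted p = 0.0507), and that of ptr-5 in limma on FPKM (adjusted p = 0.052).

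The 2 receptor-like genes that fell were ptr-2 and ptr-23. The gene ptr-2 (WBGene00004217, chromosome I, 3789306 to 3792797) had 84.6 and 84.9 CPM in control and 64.5 and 65.2 CPM with GNC. Its log2 fold change was -0.39 (SE 0.06, edgeR adjusted p = 0.000785). The gene ptr-23 (WBGene00004237, chromosome I, 14909240 to 14913073) had 50.3 and 47.7 CPM in control and 31.6 and 34.5 CPM with GNC, a log2 fold change of -0.57 (SE 0.08, edgeR adjusted p = 0.000441). In both, the replicates lay close together and the groups were clearly apart, in the same libraries that the test used.

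The other receptor-like genes did not pass the test. The abundant ptr-24 had 129 and 128 CPM in control and 127 and 121 CPM with GNC, a log2 fold change of -0.05 with a 95% interval from -0.18 to 0.07 (edgeR adjusted p = 0.486). With the medians of the libraries made equal, its log2 fold change was -0.18 and passed the test (adjusted p = 0.0226). For ptr-10, whose promoter is used as a reporter for ensheathing glia, the levels were 4.40 and 4.44 CPM in control and 3.95 and 3.94 CPM with GNC (log2 fold change -0.16, edgeR adjusted p = 0.495). The gene ptr-4, which is needed for moulting, had 2.04 and 3.71 CPM in control and 2.80 and 2.26 CPM with GNC, so its control libraries lay on both sides of the GNC libraries. The widest change without a pass was that of ptr-1, at a log2 fold change of 1.03 (SE 0.50, edgeR adjusted p = 0.129), from 4 and 6 counts to 11 and 13, and this gene passed the filter on low counts only through its GNC libraries.

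**Figure D2:**
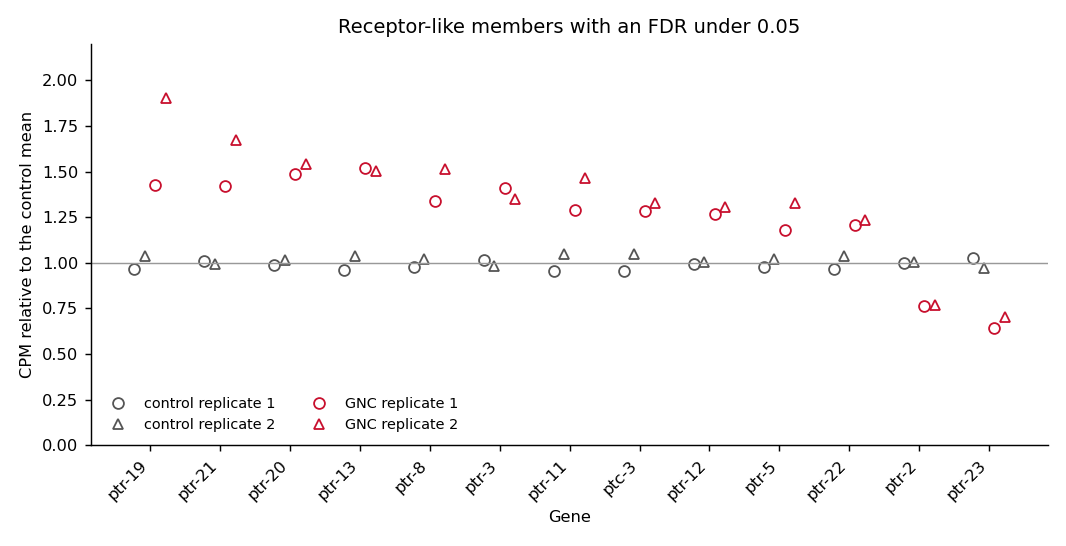
Level of the 13 receptor-like genes with an FDR under 0.05 in each library, as CPM divided by the mean CPM of the 2 control libraries; the line at 1 is the control mean. In 11 genes the GNC symbols lie above the control symbols without overlap, and in ptr-2 and ptr-23 they lie below. The 13 genes were picked by the test on these same libraries, so the separation is not further support.

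The ligand-like genes showed changes in both directions and at low counts. Of the 58 genes, 28 passed the filter on low counts, and of these 6 rose and 3 fell at an FDR under 0.05. The shares of 21.4% and 10.7% stand beside the 19.8% and 20.5% of all genes tested. Of these genes, grl-12 and grd-2, which rose, and grl-16 and grd-5, which fell, passed the filter through their higher group only. The shares therefore cannot be read as a like comparison, and grl-16 and grl-12 are also the ends of the range below. At 2-fold, 2 were called higher and 2 lower (7.14% each), beside 4.97% and 2.23% of all genes tested. The median log2 fold change of the 28 ligand-like genes was 0.17, within a range from -1.78 to 1.58. This median depended on the libraries and the scaling, at 0.023 without control replicate 1, 0.0153 without control replicate 2, 0.05 without GNC replicate 2, 0.27 without GNC replicate 1, 0.10 without a filter, where 55 were tested, and 0.0048 with expression-dependent offsets. The median mean count was 16.6 among the ligand-like genes tested and 421 among the receptor-like genes, and the median SE of the log2 fold change was 0.38 and 0.10. The summed CPM of all 58 was 82.0 and 87.6 in control and 86.3 and 90.6 in GNC libraries, so the GNC 1 library lay below the control 2 library.

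All 4 ligand-like genes called at 2-fold had passed the filter through the higher group only and no library of the other group reached its cutoff, so the filter itself required that the groups differ and do not overlap. The groundhog-like gene grl-12 (WBGene00001721, chromosome V, 8635820 to 8636988) went from 6 and 8 counts to 25 and 24, a log2 fold change of 1.58 (SE 0.39, edgeR adjusted p = 0.0103). Its adjusted p was 0.051 without control replicate 1, 0.0648 without GNC replicate 1 and 0.0647 without GNC replicate 2. The groundhog gene grd-2 (WBGene00001691, chromosome V, 20609863 to 20613784) had 4 counts in both control libraries and 16 and 12 with GNC, a log2 fold change of 1.56 (SE 0.50, edgeR adjusted p = 0.031). Leaving out any library ended this call, with adjusted p from 0.101 without control replicate 1, over 0.103 without GNC replicate 2 and 0.122 without control replicate 2, to 0.246 without GNC replicate 1. In the opposite direction, grl-16 (WBGene00001725, chromosome I, 572177 to 575119) had 22 and 20 counts in control and 7 in both GNC libraries, a log2 fold change of -1.78 (SE 0.40, edgeR adjusted p = 0.00621, and 0.0582 without GNC replicate 1). The count of grd-5 (WBGene00001694, chromosome V, 8619032 to 8619869) was 10 and 17 in control and 7 and 5 with GNC, a log2 fold change of -1.37 (SE 0.49, edgeR adjusted p = 0.0481). That call was lost without control replicate 2 (adjusted p = 0.287), GNC replicate 1 (0.17) or GNC replicate 2 (0.249).

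Of the other ligand-like genes that passed the test, grd-1 (WBGene00001690, chromosome X, 11109450 to 11115841) had the most counts among those that rose, with 58 and 57 in control and 140 and 93 with GNC. Its log2 fold change was 0.80 (SE 0.22, edgeR adjusted p = 0.0149) and 0.53 without GNC replicate 1, and the GNC libraries differed from each other more than the control libraries did. With all 4 libraries the call of grd-1 was lost in DESeq2 (adjusted p = 0.0514) and without a filter (0.1234). It was also lost in limma on FPKM (adjusted p = 0.1375) and with expression-dependent offsets (0.0539). The gene grl-4 rose from 45 and 38 counts to 88 and 68 (log2 fold change 0.69, adjusted p = 0.0361). It lost this call in DESeq2 (adjusted p = 0.1722), without a filter (0.1204), with equal library medians (0.07003) and with expression-dependent offsets (0.1155). Its adjusted p was 0.152 without control replicate 2, 0.236 without GNC replicate 1 and 0.0517 without GNC replicate 2. The warthog gene wrt-1 rose from 17 and 16 counts to 34 and 38 (log2 fold change 0.91, adjusted p = 0.0415). This rise was lost without control replicate 1 (adjusted p = 0.0814), control replicate 2 (0.14), GNC replicate 1 (0.113) or GNC replicate 2 (0.267). For grl-27 the counts went from 14 and 10 to 27 and 29, and its fold of 1.999 was just under the 2-fold threshold (adjusted p = 0.0492). It too was lost without control replicate 1 (adjusted p = 0.0541), control replicate 2 (0.228), GNC replicate 1 (0.146) or GNC replicate 2 (0.252). The gene grl-10, second in level among the ligand-like genes, fell from 234 and 215 counts to 198 and 191 (log2 fold change -0.42, SE 0.13, adjusted p = 0.0239). It lost this call with upper quartile normalization (adjusted p = 0.05455), library totals (0.07642), DESeq2 (0.09321), no filter (0.1103) and limma on FPKM (0.09463). Its adjusted p was 0.1 without control replicate 1, 0.0958 without GNC replicate 1 and 0.0555 without GNC replicate 2. In the annotation its exons share 18 bases with those of the ribosomal protein gene rpl-39 on the opposite strand, whose counts were 2636 and 2637 in control worms and 2350 and 1781 in GNC worms. The log2 fold change of rpl-39 was -0.57 (adjusted p = 0.0007), and the part of its reads in the fall of grl-10 was not tested.

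The abundant wrt-5 did not pass the test, with 22.3 and 28.0 CPM in control and 26.2 and 30.3 CPM with GNC, and its groups overlapped. Its log2 fold change was 0.17 with a 95% interval from -0.10 to 0.44 (edgeR adjusted p = 0.299), and without control replicate 2 it was 0.34 (adjusted p = 0.036). Its relative wrt-10 had a log2 fold change of -0.01 with overlapping groups, and grd-15 one of 0.17 from 6 and 14 counts in control and 11 and 15 under GNC. The gene grl-14 was slightly lower in both GNC libraries, at 9.03 and 9.45 CPM in control and 8.30 and 8.40 CPM with GNC (log2 fold change -0.15, adjusted p = 0.396). The gene grl-8 was higher in both GNC libraries (log2 fold change 0.38, adjusted p = 0.242), and so was wrt-3 (0.73, adjusted p = 0.0804), without passing the test. The excretory duct and pore gene grl-2 had 22 and 10 counts in the control libraries, on both sides of the 20 and 18 counts with GNC.

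The number of ligand-like genes that passed fell with 1 library less. The number that rose was 2 without control replicate 1, 3 without control replicate 2, 0 without GNC replicate 1 and 1 without GNC replicate 2, and the number that fell was 2, 2, 0 and 1 in the same order. In DESeq2 none of the 20 ligand-like genes that were given an adjusted p passed an FDR of 0.05, and 4 had an unadjusted p under 0.05, against 11 in edgeR. The other 8, grd-2 and grd-5 among them, had no adjusted p there. For neither method was the share of all genes with an unadjusted p under 0.05 counted. Among the 24 receptor-like genes with an adjusted p, DESeq2 passed 8 as higher and 2 as lower. Over all 16341 genes fitted, DESeq2 passed 2160 as higher and 2514 as lower. For the receptor-like genes, 9 to 10 rose and 2 fell with 1 library left out. All of these fits take the spread from the group that still had both libraries.

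**Figure D3:**
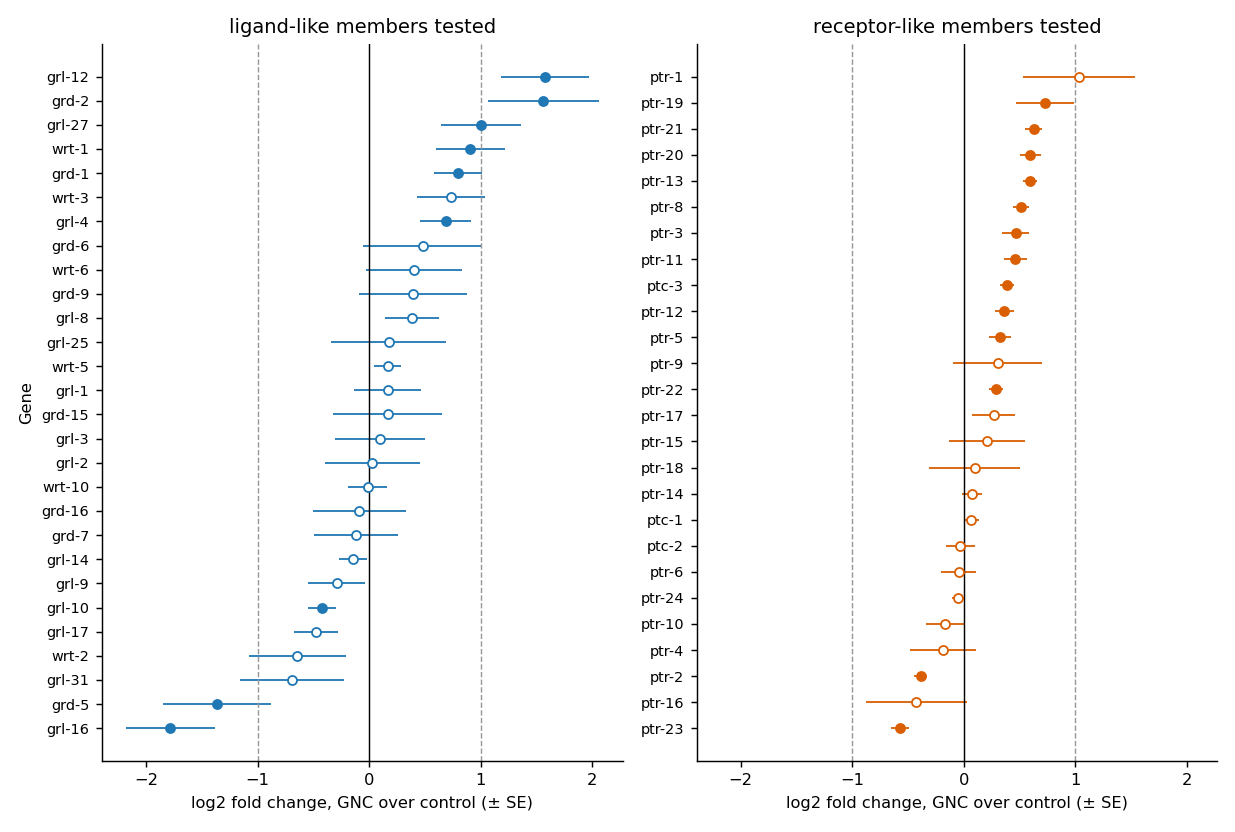
Log2 fold change of GNC over control for the 28 ligand-like (left) and 26 receptor-like (right) genes tested, with bars of 1 standard error; filled points have an FDR under 0.05 and dashed lines mark 2-fold changes. Ligand-like genes range from -1.78 to 1.58 with wide bars, and the 11 receptor-like genes that rose lie between 0.29 and 0.73.

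Depth differs between the classes and among all genes the fold change moves with it, so the members were also set beside genes of like depth. Among the 3218 genes tested with mean counts from 1000 to 3000, the median log2 fold change was -0.11, and 14.4% rose while 37.3% fell. In that range lie 7 receptor-like genes, and 5 of them (ptr-8, ptr-13, ptr-21, ptr-22 and ptc-3) rose while ptr-2 fell and ptr-24 did not pass. Between 300 and 1000 mean counts, where 27.3% of 3433 genes rose and 22.5% fell, 4 of 6 receptor-like genes rose (ptr-20, ptr-11, ptr-12 and ptr-5) and ptr-23 fell. From 100 to 300 mean counts 31.6% of all genes rose and 11.9% fell, and 1 of 3 receptor-like genes rose, while 1 of 2 ligand-like genes passed. From 30 to 100, where 19.4% rose and 8.37% fell, 1 of 4 receptor-like and 2 of 7 ligand-like genes passed in either direction. From 10 to 30, where 7.96% rose and 5.21% fell, it was 0 of 4 and 4 of 14. Of the latter 4, grl-12 and grl-16 had passed the filter through their higher group only, so their share cannot be read against that of all genes. The genes grd-2 and grd-5, with mean counts of 9 and 9.75, lay below these ranges. With expression-dependent offsets, which take the trend with level out of each library, 9 receptor-like genes rose and 2 fell, while 1 ligand-like gene rose and 4 fell. Over all 16341 genes tested, 2935 rose and 2976 fell in that fit. The receptor-like genes are also long, with a median length of 2940 bases against 1312 over all genes tested. For the 676 tested genes with a length in the middle range of theirs, the median was -0.01, and 17.01% rose while 23.4% fell.

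**Figure D4:**
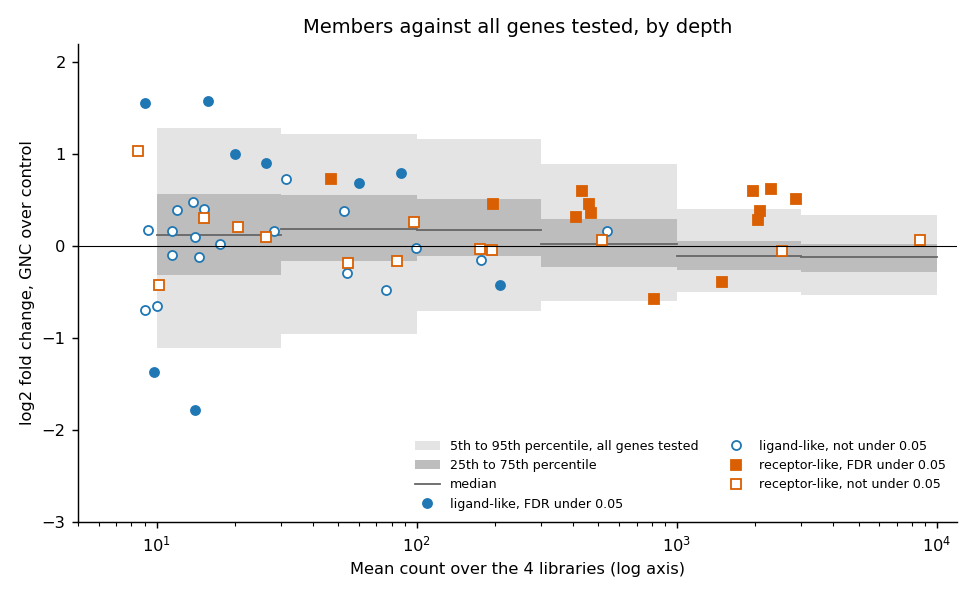
Log2 fold change of GNC over control against the mean count over the 4 libraries (log axis) for ligand-like (blue circles) and receptor-like (orange squares) genes, filled where the FDR is under 0.05. Grey bands give the 5th to 95th and 25th to 75th percentiles and the lines the median of all genes tested in 6 ranges of mean count; the median is -0.11 from 1000 to 3000 counts, where 5 receptor-like genes rose.

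Other genes of the pathway and other sterol-sensing genes were given as a list of 11, of which all were tested, 3 rose (27.3%) and 1 fell (9.09%), beside the 19.8% and 20.5% of all genes tested. Their median log2 fold change was 0.13. The rises were in the Niemann-Pick type C homologs ncr-1 and ncr-2, which act in cholesterol transport, and in lrp-1, a megalin homolog needed for moulting. The level of ncr-2 was 33.8 and 34.3 CPM in control and 49.4 and 53.7 CPM with GNC, a log2 fold change of 0.60 (SE 0.08, edgeR adjusted p = 0.000286). That of ncr-1 was 95.3 and 98.1 CPM in control and 123 and 121 CPM with GNC, a log2 fold change of 0.34 (SE 0.06, edgeR adjusted p = 0.00118). Both passed under all 14 other settings, as did ptc-3, ptr-8, ptr-13, ptr-20, ptr-21, ptr-2 and ptr-23 among the members. The change of lrp-1 was smaller, from 149 and 160 CPM to 179 and 182 CPM (log2 fold change 0.22, adjusted p = 0.0137). It was lost under 4 of the 14 other settings. Among them were the medians of the libraries made equal (adjusted p = 0.261) and the fits without control replicate 1 or GNC replicate 2. The Gli homolog tra-1, a regulator of sex determination, fell from 109 and 107 CPM to 97.0 and 95.6 CPM (log2 fold change -0.17, adjusted p = 0.033). This was lost without control replicate 1 (adjusted p = 0.102), GNC replicate 1 (0.0989) or GNC replicate 2 (0.142). It was also lost under 6 other settings, among them library totals (log2 fold change -0.07, adjusted p = 0.37) and DESeq2 (adjusted p = 0.115).

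The remaining genes of that list gave no call. The quahog gene qua-1, a Hedgehog-related gene outside the families above, had 8.53 and 7.20 CPM in control and 9.01 and 7.97 CPM with GNC (log2 fold change 0.11). The Dispatched-like gene che-14, which acts in apical secretion, had 3.03 and 3.81 CPM in control and 3.42 and 3.94 CPM with GNC (log2 fold change 0.10). For daf-6, a Patched-related gene of glial channels, the levels were 2.201 and 2.193 CPM in control and 2.26 and 2.50 CPM with GNC (log2 fold change 0.11). The edgeR adjusted p was 0.579, 0.736 and 0.733 for these genes.

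Markers of other cells and stages also moved between the groups, and their part in the changes above was not tested. None of the marker genes was at 0 in any library. The counts that follow stand beside the 19.8% of all genes tested that rose and the 20.5% that fell. Of 16 sperm genes tested 12 rose (75%) and 0 fell, with a summed level of 839 and 855 CPM in control and 1026 and 1079 CPM with GNC. Of 20 oocyte and embryo genes tested 2 rose (10%) and 13 fell (65%). Their summed level overlapped, at 5098 and 5761 CPM in control and 5325 and 5750 CPM with GNC. The 2 that rose, perm-4 and perm-2, have the highest CPM of that list and weigh most in the sum. The level of perm-4 was 1663 and 2104 CPM in control and 2720 and 2974 CPM with GNC. In the list of 7 adult genes, the 6 vitellogenin genes, which encode yolk proteins, fell (85.7% of the list) and the adult collagen col-19 did not pass. The summed level of that list was 2950 and 3317 CPM in control and 2204 and 2107 CPM with GNC. Of 18 larval moulting genes tested 2 rose (11.1%) and 5 fell (27.8%), with a median log2 fold change of -0.23. At 2-fold, 3 were called lower (16.7%) and 0 higher, beside 2.23% and 4.97% of all genes tested. The sum of that list was 296 and 303 CPM in control and 311 and 313 CPM with GNC. The larval cuticle collagens had 3 falls among 9 tested (33.3%), from 102 and 114 CPM to 76.0 and 74.1 CPM, and 8 genes of that list were too low to test. Hypodermis and seam regulators had 2 rises (25%) and 3 falls (37.5%) among 8, at 163 and 156 CPM in control and 124 and 134 CPM with GNC, and 4 of 7 glial genes tested rose (57.1%), from a summed 46.0 and 50.9 CPM to 60.4 and 61.8 CPM.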

How the data were processed

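RNA-seq libraries of whole N2 worms were analysed, 2 with GNC and 2 with water. The submitters' processing notes name CASAVA 1.8, TopHat2 2.1.0, Cuffdiff and the build WBcel235, without their roles. The tool that counted the reads is not given in the sources used here. The authors deposited raw counts per gene and FPKM values for each library. The FPKM carry no TMM scaling and were used only for levels and in 1 alternative.

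The counts were fitted over the whole table with edgeR 4.0.16 (R 4.3.3): filterByExpr (10 counts at the median library size, 0.497 CPM, in 2 libraries), TMM, glmQLFit and glmQLFTest, with treatment as the only term. The SE is the log2 fold change divided by the root of F. The procedure was tested on simulated data. Library totals moved the median of all genes by 0.10 and equal library medians by -0.13 on the log2 scale. Alternatives were upper quartile normalization, library totals, rescaling to the same median, DESeq2, no filter, a stricter filter, limma on log2(FPKM + 0.1), the replicate block, leaving out each library, equal library medians and expression-dependent offsets. They used limma 3.58.1 and DESeq2 1.42.0. The exons were those of Ensembl release 115; 4 of 84 members had identical positions there, and 62 differed by at most 100 bases.

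Genes were named by rule: members with an FDR under 0.05, the 3 of highest mean FPKM in each large family, hog-1, ptc-1 and ptc-3, and, of the other pathway genes, those with an FDR under 0.05 and tra-1, che-14, daf-6 and qua-1. Named outside this rule, after their values were seen, were ptc-2, ptr-1, ptr-4, ptr-10, ptr-16, grl-2, grl-11, grl-21, grd-4, grd-10, grd-14, rpl-39, sra-10, perm-2, perm-4 and the neighbouring members without values. The members and lists were chosen with earlier results of these data known.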

Additional observations from a re-analysis of the deposited data

How the results depend on the processing

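Equal library medians and expression-dependent offsets were chosen after seeing the data. No direction of a class median was reversed. The receptor-like median of 0.2792 was 0.3567 with upper quartile normalization, 0.3823 with library totals, 0.3912 with limma on FPKM, 0.1474 with equal library medians and 0.176 with expression-dependent offsets. The ligand-like median of 0.1659 was 0.2428, 0.268, 0.2755, 0.0352 and 0.0048 under the same settings, 0.0965 with no filter and 0.102 with the stricter filter of 10 counts in every library. Leaving out a library gave from 0.1822 to 0.3597 and from 0.0153 to 0.2675. The receptor-like median exceeded that of all genes tested in every setting run, by 0.16 to 0.34, and the ligand-like median differed from it by -0.01 to 0.26.

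The 11 receptor-like rises were 7 with no filter (29615 genes tested) and 6 with equal library medians. Over all genes, 3238 of 16341 rose in the edgeR fit used above. With no filter 1573 of 29615 rose, and with equal library medians 2298 of 16341. The 6 ligand-like rises at an FDR under 0.05 were 0 with DESeq2, 1 with no filter, 3 with limma on FPKM, 3 with equal library medians and 1 with expression-dependent offsets. Rises over all genes numbered 2160 with DESeq2, 3218 of 16938 with limma on FPKM and 2935 with expression-dependent offsets. The 3 falls were 1 with upper quartile normalization, library totals, no filter or the stricter filter, and 0 with DESeq2 or limma on FPKM. Falls over all genes numbered 3356 in the edgeR fit used above, 2391 with upper quartile normalization and 2121 with library totals. They numbered 1042 with no filter, 3245 of 15264 with the stricter filter, 2514 with DESeq2 and 1411 with limma on FPKM. At 2-fold, the 2 ligand-like genes higher were 4 with library totals, 0 with DESeq2, and 1 with no filter, the stricter filter or expression-dependent offsets. Over all genes, 812 were called higher in the edgeR fit used above, 1091 with library totals and 610 with DESeq2. The number was 565 with no filter, 697 with the stricter filter and 476 with expression-dependent offsets. The 2 lower were 1 with upper quartile normalization, library totals or no filter, and 0 with DESeq2, the stricter filter or limma on FPKM. Over all genes, 364 were called lower in the edgeR fit used above, 298 with upper quartile normalization and 280 with library totals. The number was 185 with no filter, 256 with DESeq2, 281 with the stricter filter and 247 with limma on FPKM. Leaving out a library gave from 0 to 3 ligand-like rises and 0 to 2 falls at the FDR, and from 0 to 1 higher and 0 to 2 lower at 2-fold. With the stricter filter and with limma on FPKM, fewer ligand-like genes could be tested (17 and 15), and DESeq2 gave 20 an adjusted p. The cause of the changes in these numbers was not tested, and grd-1 and grl-10 had an adjusted p in DESeq2 and in limma without passing.

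Both groups carry the replicate numbers 1 and 2, yet the deviations of libraries with the same number were nearly uncorrelated (r = 0.039 across genes). With the replicate block, 1 ligand-like gene was called lower at 2-fold in place of 2, 5 rose and 2 fell at the FDR, and the receptor-like numbers were 11 and 2. Over all genes tested, 3469 rose and 3601 fell at the FDR with the block, and 365 were called lower at 2-fold. The block lost grd-5 (adjusted p = 0.0568) and grl-27 (0.0563). Low counts limited the ligand-like genes: 30 of 58 fell below the filter, and 3 had no counts at all.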
